A study of Mus musculus with 6 samples.

Results

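The genes described here encode proteins of the cytosolic ribosome, the particle that translates messenger RNA in every cell. They were chosen by gene name: 34 genes of the large subunit (Rpl and Rplp symbols) and 19 of the small subunit (Rps symbols), 53 in all. Probes were matched through the gene symbols of the array's annotation, and each gene was read by its detected probe with the highest mean over the arrays. A probe was matched for 43 of the 53 genes, and for 38 of them (22 large, 16 small) it was detected on at least 3 of 6 arrays and tested, among 9000 tested genes. All 38 were detected on all 6 arrays.

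RNA came from lineage-negative, Kit-positive (LK) bone marrow cells, the sorted fraction that holds blood stem and progenitor cells. NHD13 transgenic mice express NUP98-HOXD13, a fusion gene of human myeloid disease, and were compared with wild type littermates, all at an age of 3 months. Each of the 6 bead arrays, 3 per genotype, holds 1 pool of marrow from 3 mice. The promoter that drives the transgene is not named in the labels used here.

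Each ribosome needs 1 copy of nearly every one of its proteins, which assemble with ribosomal RNA in the nucleolus and are degraded when left unassembled. Blood formation is sensitive to their supply: inherited loss of 1 gene copy of RPS19 or several others causes Diamond-Blackfan anaemia, and loss of 1 copy of RPS14 accompanies a form of human myelodysplastic syndrome. Unassembled RPL5 and RPL11 bind MDM2 and so stabilise p53. The messenger RNAs of ribosomal proteins begin with a C followed by a run of pyrimidines, the TOP motif, through which the mTOR pathway controls their translation. RNA level therefore is not ribosome output, and an array reads only the RNA.

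None of the 38 genes passed the test. The genotype difference, NHD13 minus wild type in log2, had a median of -0.02 over the 22 large subunit genes and -0.05 over the 16 small subunit genes, beside 0.03 over all 9000 tested genes. The order depends on the scaling and the statistic: with arrays scaled to a common median in place of quantile normalization the medians were -0.03 (large), -0.08 (small) and -0.04 (all), and with quantile normalization the means were -0.02, -0.05 and -0.03. In the large subunit 8 genes lay above 0 and 14 below, and in the small subunit 2 lay above and 13 below, with Rps2 at 0. Over all tested genes 54.1% lay above 0. Of all tested genes, 0.556% (50 of 9000) passed at an adjusted p under 0.05 (limma, adjusted over all tested probes), and of the 38 ribosomal protein genes 0 did. At an unadjusted p under 0.05 there were 690 of all genes (7.67%) and 0 of the 38. Their adjusted p-values lay between 0.65 and 1.

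The intervals show what size of difference these arrays leave possible. They and the standard errors come from a fit on genotype alone, in which arrays of one number are not paired. With the array number as a block the adjusted p was 0.29 for Rplp0 and 0.33 for Rps3a1 (limma). For 32 of the 38 genes the difference was smaller than its own standard error, counting Rps2, whose difference the normalization fixed at 0. The 95% intervals of all 38 included 0 and together spanned -0.65 (Rps3a1) to 0.73 (Rplp0) in log2, or 0.638-fold to 1.66-fold. An interval of this width does not show that the genotypes are alike.

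**Figure D1:**
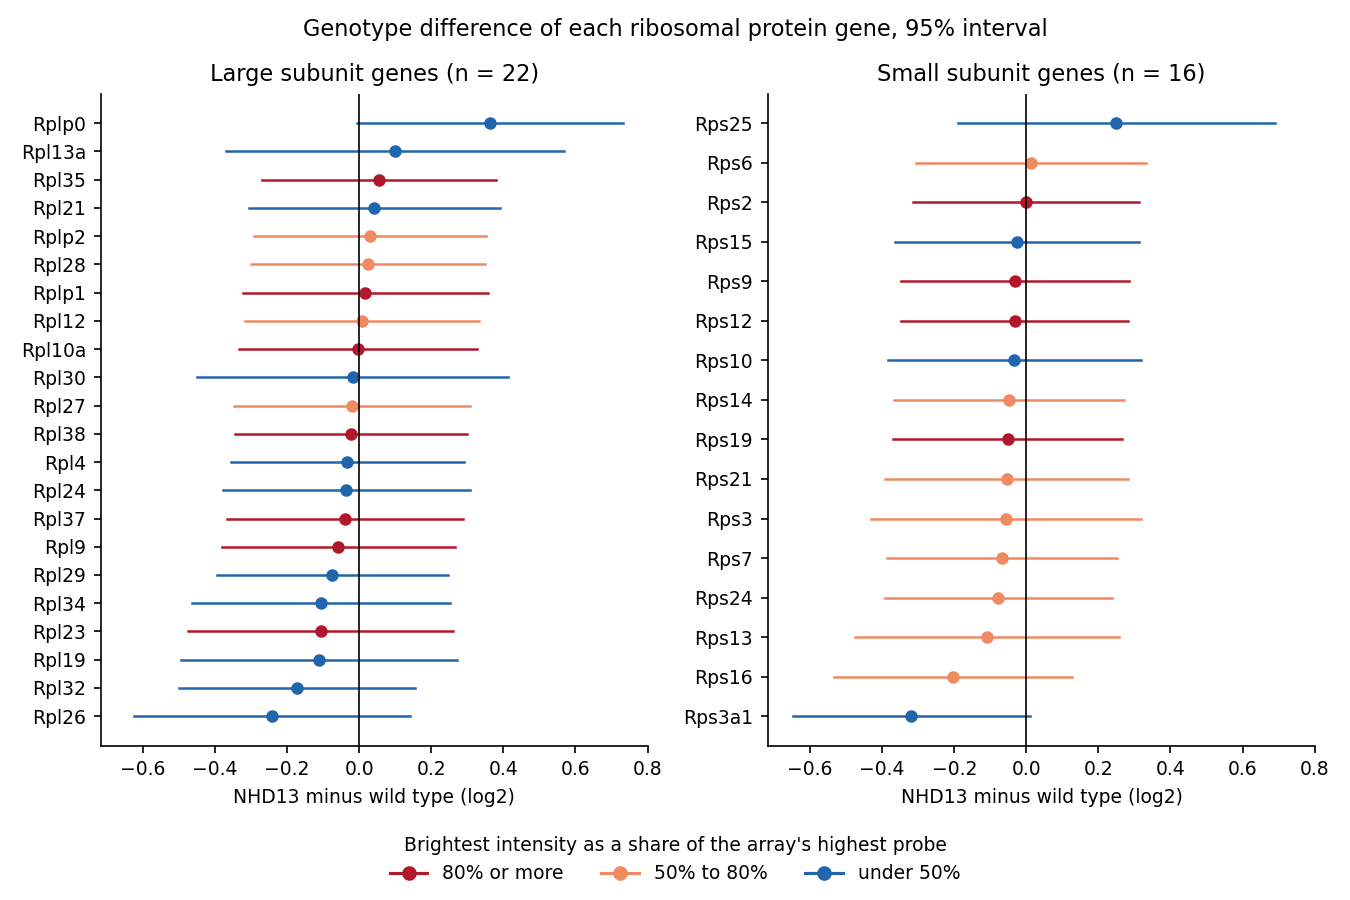
Difference between NHD13 and wild type (log2, points) with its 95% interval (lines) for the 22 large and 16 small subunit genes, coloured by how close the probe came to the highest intensity of an array. Every interval, from the fit on genotype alone, crosses 0, and Rplp0 (0.36) and Rps3a1 (-0.32) stand at the ends.

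The sequence feature named above was looked for in the RefSeq promoter table (build GRCm38.p6). The motif searched, on the gene's strand, was a C lying within 5 bases of the annotated start and followed by at least 4 bases that are C or T. Promoters were found for 42 of the 53 genes, and 19 of them (45.2%) held such a tract, as did 5718 of 27025 genes (21.2%) in the whole table. Of the 32 tested genes with a promoter, 14 held a tract; their median difference was -0.01, and that of the other 18 was -0.05. No match says only that these letters are not near the annotated start, which need not be the start used in these cells. The windows of 6 tested genes from both subunits are printed to show how such a tract looks and varies, each from 10 bases before to 20 after the annotated start, with the tract in capitals.
Rpl35: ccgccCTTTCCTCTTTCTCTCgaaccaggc
Rpl28: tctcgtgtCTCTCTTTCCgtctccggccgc
Rpl38: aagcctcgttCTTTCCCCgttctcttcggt
Rplp2: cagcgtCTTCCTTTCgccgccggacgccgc
Rps6: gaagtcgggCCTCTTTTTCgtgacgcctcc
Rps10: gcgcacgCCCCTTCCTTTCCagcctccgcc
The windows of Rpl35 (chr2:39005112-39005141, minus strand) and Rpl28 (chr7:4792955-4792984, plus strand) hold tracts of 16 and 10 bases. The Rpl35 tract is counted from the search limit of 5 bases, and further C bases lie directly before its capitals. That of Rpl38 lies at chr11:114668570-114668599 (plus strand, 8 bases) and that of Rplp2 at chr7:141447641-141447670 (plus strand, 9 bases). The small-subunit windows lie at chr4:86857348-86857377 (Rps6, minus strand, 10 bases) and chr17:27635225-27635254 (Rps10, minus strand, 13 bases). Each window spans the promoter's edge and the first transcribed bases. Over these 6 genes the differences ranged from -0.03 (Rps10) to 0.06 (Rpl35).

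Probe brightness bears on every value. An intensity near the top of the scanner's range can be compressed, which was not tested for these probes. The probe of Rps2, a protein at the ribosome's messenger RNA entry site, was the highest of all 45281 probes on each of the 6 arrays, at non-normalized intensities of 56350, 53922 and 52045 in wild type and 54192, 52888 and 54078 in NHD13. Quantile normalization gives the highest probe of every array the same value, 15.71 in log2, so the difference of 0 for Rps2 is set by the method and measures nothing. Its dimmer tested probe measured 0.04, and the brightest probe measured 0.04 with median scaling. The probe of 11 genes (7 large, 4 small) reached at least 80% of the highest intensity on some array, and that of 23 genes (11 large, 12 small) reached at least 50%. On the whole array set 24 and 66 genes did so.

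Differences of brighter genes were smaller in median size, among ribosomal and all genes. Over the 11 genes at 80% or more, namely Rpl9, Rpl10a, Rpl23, Rpl35, Rpl37, Rpl38, Rplp1, Rps2, Rps9, Rps12 and Rps19, they ran from -0.11 to 0.06 with a median size of 0.03. The 12 genes between 50% and 80% ran from -0.20 to 0.03 with a median size of 0.05. The 15 dimmer genes ran from -0.32 to 0.36 with a median size of 0.10. Over all tested genes the median size was 0.03, 0.08 and 0.19 in the same 3 ranges of brightness. This is not a separate comparison, since the 24 and 42 genes of the 2 brighter ranges include these 11 and 12. The threshold of 80% divides Rpl10a, whose brightest value stood at 80.1%, from Rpl27 at 74.5%. Within an array the standard error over beads was 1.18% to 8.98% of the intensity at the median array, depending on the gene.

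**Figure D2:**
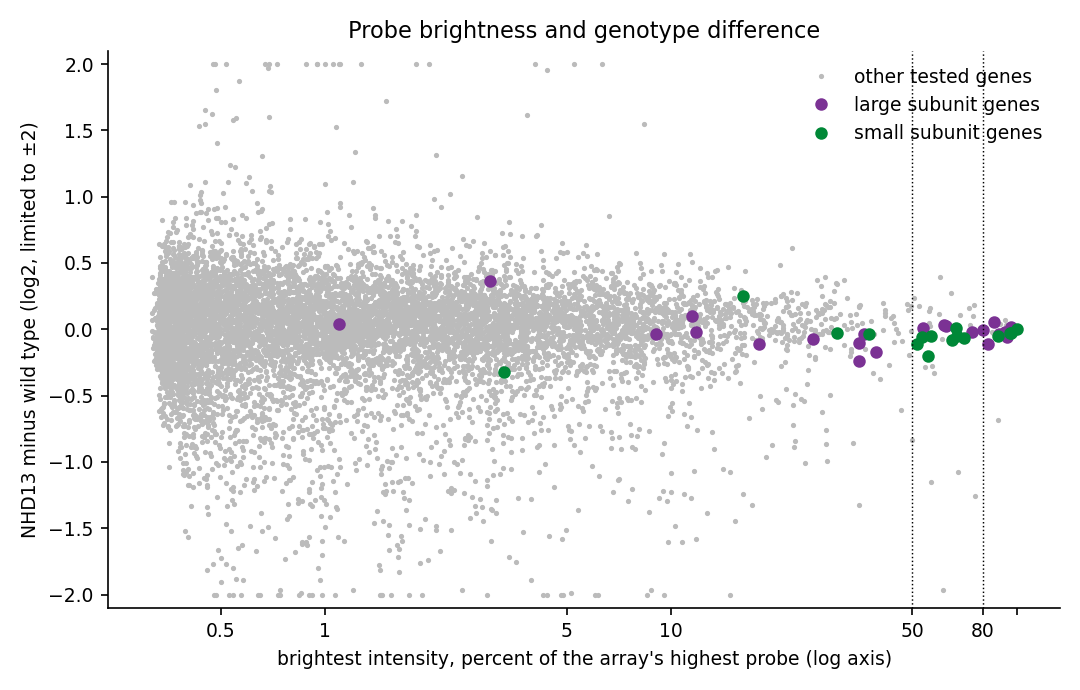
Genotype difference (log2, limited to 2 in either direction) against the brightest intensity of each gene's probe as a percent of the highest probe of that array (log axis), for large subunit genes, small subunit genes and all other tested genes. Dotted lines mark 50% and 80%; the ribosomal genes at 80% or more lie between -0.11 and 0.06.

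Groups that did not overlap were found for 5 of the 38 genes, 1 higher and 4 lower in NHD13, where 12.5% of all tested genes (1129 of 9000) had such groups.

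Rplp0 encodes the base of the ribosomal stalk, which recruits elongation factors, and is often taken as a reference gene. It measured 10.09, 10.01 and 9.96 in wild type and 10.55, 10.41 and 10.20 in NHD13 (normalized log2 intensity). The 3 NHD13 pools all lay above the 3 wild type pools. The difference of 0.36 ± 0.16 (SE, n = 3 against 3; 1.29-fold, 95% interval 0.995 to 1.66) did not pass (limma, adjusted p = 0.65). The Rplp0 probe was dim, with its brightest value at 3.01% of the highest probe. The other stalk genes, Rplp1 and Rplp2, measured 0.02 and 0.03, with brightest values at 96.7% and 61.9% of the highest probe. A second Rplp0 probe was not above background on any array.

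Rps3a1, the mouse gene of a protein near the messenger RNA exit channel, went the other way. It measured 10.46, 10.30 and 10.45 in wild type and 10.07, 10.12 and 10.05 in NHD13. All 3 NHD13 pools lay below all 3 wild type pools, at a difference of -0.32 ± 0.14 (SE; 0.802-fold, 95% interval 0.638 to 1.01; adjusted p = 0.65). The Rps3a1 probe was also dim, with its brightest value at 3.29% of the highest probe. Rps25, which some viral and cellular messenger RNAs need for initiation at internal sites, measured 12.57, 12.43 and 12.54 in wild type and 13.06, 12.73 and 12.50 in NHD13. Here NHD13 pool 3 lay inside the wild type range, and the difference was 0.25 ± 0.19 (adjusted p = 0.75).

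Further genes with groups apart were Rps16, Rpl32 and Rps24, all lower in NHD13. Rps16, of the decoding side of the small subunit, measured 14.64, 14.65 and 14.57 in wild type and 14.36, 14.37 and 14.52 in NHD13 (difference -0.20 ± 0.14, SE). Rpl32 measured 14.10, 14.17 and 14.05 against 14.01, 13.88 and 13.91 (-0.17 ± 0.14), its groups parted by less than the spread inside each. Rps24 measured 14.87, 14.91 and 14.91 against 14.80, 14.82 and 14.84 (-0.08 ± 0.13). These 3 had adjusted p-values of 0.73, 0.76 and 0.88 (limma). The probes of Rps16 and Rps24 reached 55.6% and 65.0% of the highest probe. Dimmer tested probes of Rps24 measured 0.04 and -0.24.

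**Figure D3:**
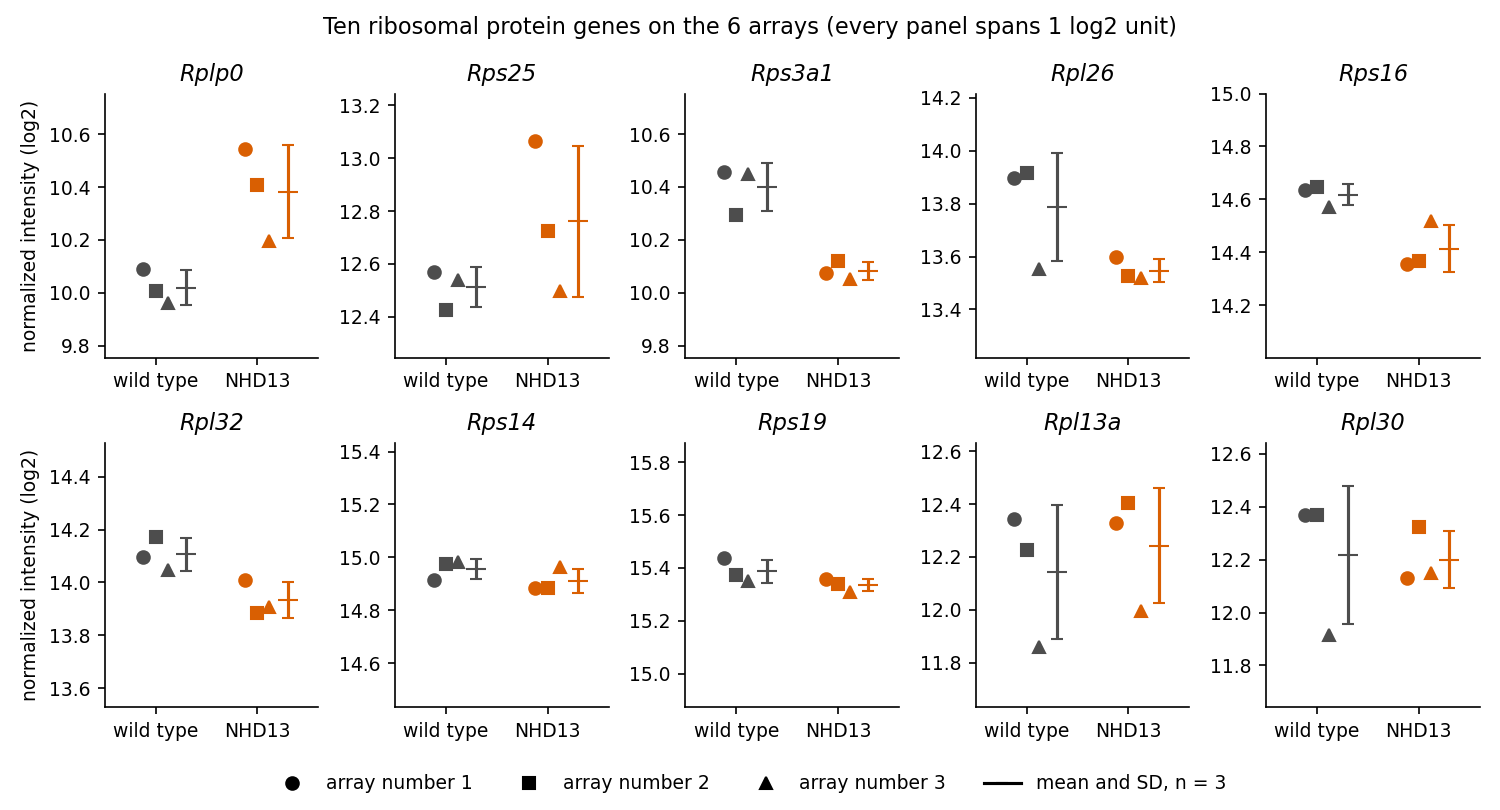
Normalized log2 intensity of 10 genes on the 6 arrays, by genotype and array number, with the mean and SD of 3 pools beside the points; every panel spans 1 log2 unit. Rplp0, Rps3a1, Rps16 and Rpl32 separate the genotypes, while Rpl13a has its lowest value in both genotypes on the arrays numbered 3.

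Genes tied to human anaemia and myelodysplastic syndrome were read next. Rps14 measured 14.91, 14.97 and 14.98 in wild type and 14.88, 14.88 and 14.96 in NHD13, so the groups overlapped. Its difference of -0.05 ± 0.13 (SE) had a 95% interval of 0.776-fold to 1.21-fold on a probe that reached 67.2% of the highest intensity. Rps19, the gene most often affected in Diamond-Blackfan anaemia, measured 15.44, 15.37 and 15.35 against 15.36, 15.34 and 15.31, a difference of -0.05 at 88.3% of the highest probe. Others of this kind measured -0.07 (Rps7), -0.03 (Rps10), -0.02 (Rpl27) and -0.24 (Rpl26). No probe was matched for Rpl5, Rpl11 and Rpl15, which are not analysed here.

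Rpl26, whose protein also binds p53 messenger RNA and aids its translation, had the lowest difference in the large subunit. It measured 13.90, 13.92 and 13.55 in wild type and 13.60, 13.52 and 13.52 in NHD13. Wild type pool 3 lay with the NHD13 pools, and without it the difference was -0.36, with it -0.24 ± 0.16 (SE, adjusted p = 0.73). Leaving out wild type pool 1 or pool 2 instead made the difference smaller, at -0.19 and -0.18.

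Some genes varied more within a genotype than between genotypes. Rpl13a, which in human monocytic cells leaves the ribosome to silence inflammatory messenger RNAs, measured 12.34, 12.23 and 11.86 in wild type and 12.33, 12.40 and 11.99 in NHD13. Rpl30 measured 12.37, 12.37 and 11.92 in wild type and 12.13, 12.32 and 12.15 in NHD13. The pool numbered 3 was lowest in both genotypes for Rpl13a and in wild type for Rpl30, and the differences were 0.10 ± 0.20 and -0.02 ± 0.18 (SE). Rps3, at the messenger RNA entry channel, had its outlying value in NHD13, at 14.20 in pool 1 beside 14.52 and 14.48, with wild type at 14.54, 14.46 and 14.38.

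Of the remaining genes, Rpl38 is of interest for its role in translating Hox messenger RNAs in the mouse embryo. It measured 15.55, 15.56 and 15.53 in wild type and 15.50, 15.48 and 15.60 in NHD13, with a difference of -0.02 and a brightest value at 92.4% of the highest probe. Rps6, the substrate of the S6 kinases downstream of mTOR, measured 14.90, 14.93 and 14.89 against 14.89, 14.98 and 14.88 (difference 0.01). Rpl23, an MDM2-binding protein, measured 15.31, 15.36 and 15.43 against 15.17, 15.15 and 15.46, so NHD13 pool 3 was the highest of all 6 (-0.11 ± 0.15, SE). In the large subunit Rpl35, Rpl21, Rpl28 and Rpl12 measured 0.06, 0.04, 0.02 and 0.01, and Rpl10a measured -0.0034. The others of that subunit measured -0.03 (Rpl4), -0.04 (Rpl24 and Rpl37), -0.06 (Rpl9), -0.07 (Rpl29) and -0.11 (Rpl34 and Rpl19). In the small subunit Rps15, Rps9 and Rps12 measured -0.02, -0.03 and -0.03, Rps21 and Rps3 measured -0.05 and -0.06, and Rps13 measured -0.11.

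Several genes had more than 1 tested probe. In 14 genes they could be compared, and in 7 of these the probes differed in sign, by up to 0.33 in log2. Dimmer probes of Rpl23 measured -0.14 and -0.28 beside -0.11 for the brightest, and the dimmer probe of Rps3 measured -0.28 beside -0.06. The dimmer probe of Rpl29 measured 0.17 beside -0.07, and that of Rpl38 0.16 beside -0.02. The widest gap was in Rpl21, whose dimmer probes measured 0.24 and -0.09 beside 0.04 for the brightest. None of these probes passed. Another 5 genes had a matched probe that was not tested. Those of Rpl14, Rpl17, Rps20 and Rps23 were not above background on any array, and that of Rpl6 was above it on 2 wild type arrays and no NHD13 array. Further genes with no matched probe were Rpl7, Rpl8, Rpl10, Rpl13, Rpl18, Rpl36 and Rps18.

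The 2 subunits can be read array by array as the mean of their genes relative to the 6 arrays. The large subunit stood at 0.05, 0.02 and -0.04 in wild type and 0.01, -0.02 and -0.01 in NHD13, so the genotypes overlapped. The small subunit stood at 0.04, 0.03 and 0.01 in wild type and -0.03, -0.02 and -0.03 in NHD13, with the 3 NHD13 pools below the 3 wild type pools by a few hundredths. Between arrays of one number the mean over all 38 genes differed by -0.06, -0.04 and 0.00, and the mean over all 9000 tested genes by -0.03, -0.05 and 0.00. By gene, 10 of 38 were lower in NHD13 in all 3 numbers, where 18.6% of all tested genes were. Of the 38, Rplp0 was higher in all 3 numbers, where 24% of all tested genes were.

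Other genes of the pathway were read from lists of related genes, beside the median of 0.03 for all tested genes. Of 30 further cytosolic ribosomal proteins, 13 were tested and none passed, with a median of -0.01 and a range of -0.25 to 0.14. The lowest was Rpl22, needed in mice for T cell development, at 11.70, 11.86 and 11.75 in wild type and 11.42, 11.53 and 11.62 in NHD13 (adjusted p = 0.71). Rpl39 measured -0.09. Of 11 genes listed as paralogs or relatives 4 were tested, and Rps27l, Rpl7l1 and the binding protein gene Rps19bp1 measured 0.10, -0.0047 and -0.0087. The fourth, Rps4l, passed the test (limma, adjusted p = 0.0049). Its probe was detected on the 3 wild type arrays and was not well above background in any NHD13 pool. It met the detection filter through wild type alone, so the p-value rests on NHD13 values at background. By its mean, wild type was at least 5.81-fold higher, with no allowance for the spread among pools. Rps4x measured -0.03 at 85.6% of the highest probe. That bound sets the wild type mean against, on each NHD13 array, the higher of the probe's own value and the lowest detected probe.

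Ribosome assembly factors were read next. Of 49 tested ribosome biogenesis genes 46 lay above 0, where 54.1% of all tested genes did. The median of this list was 0.19, though none of its genes passed. Rrp1 measured 0.73 ± 0.34 (SE, adjusted p = 0.67) and Nol10, of the nucleolus, measured 0.37. Of 13 tested genes of RNA polymerase I and its factors, which make ribosomal RNA, 9 lay above 0 with a median of 0.21. Cd3eap, a subunit of that polymerase, measured 0.52, and Polr1a, its largest subunit, 0.25 (adjusted p = 0.65 and 0.74). Of 69 tested mitochondrial ribosomal proteins 55 lay above 0 with a median of 0.12, with Mrpl9 at 0.39 and Mrps5 at 0.35 (adjusted p = 0.69 and 0.70). Among 27 translation factors and other TOP messenger RNAs the median was 0.09, with Eif3b, an initiation factor, at 0.29 and Vim, a filament protein, at -1.23 (adjusted p = 0.70 and 0.69). Over 18 regulators the median was 0.03, with the p53 target Cdkn1a at -1.41 and the cap-binding protein Eif4e at 0.40 (adjusted p = 0.62 and 0.67). The counts above 0 are from quantile normalization, and with median scaling the median over all tested genes was -0.04 in place of 0.03.

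Some of these lists also differed between array numbers. The biogenesis mean stood at -0.06, 0.11 and -0.36 in wild type pools 1 to 3 and at 0.12, 0.39 and -0.21 in NHD13 pools 1 to 3. The genotypes overlapped, while arrays of one number differed by 0.18, 0.28 and 0.15. The mitochondrial ribosomal list ran alike, with differences of 0.11, 0.13 and 0.06. The number 3 arrays were thus lowest and the number 2 arrays highest in both genotypes, an order that the cytosolic ribosomal genes did not share.

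**Figure D4:**
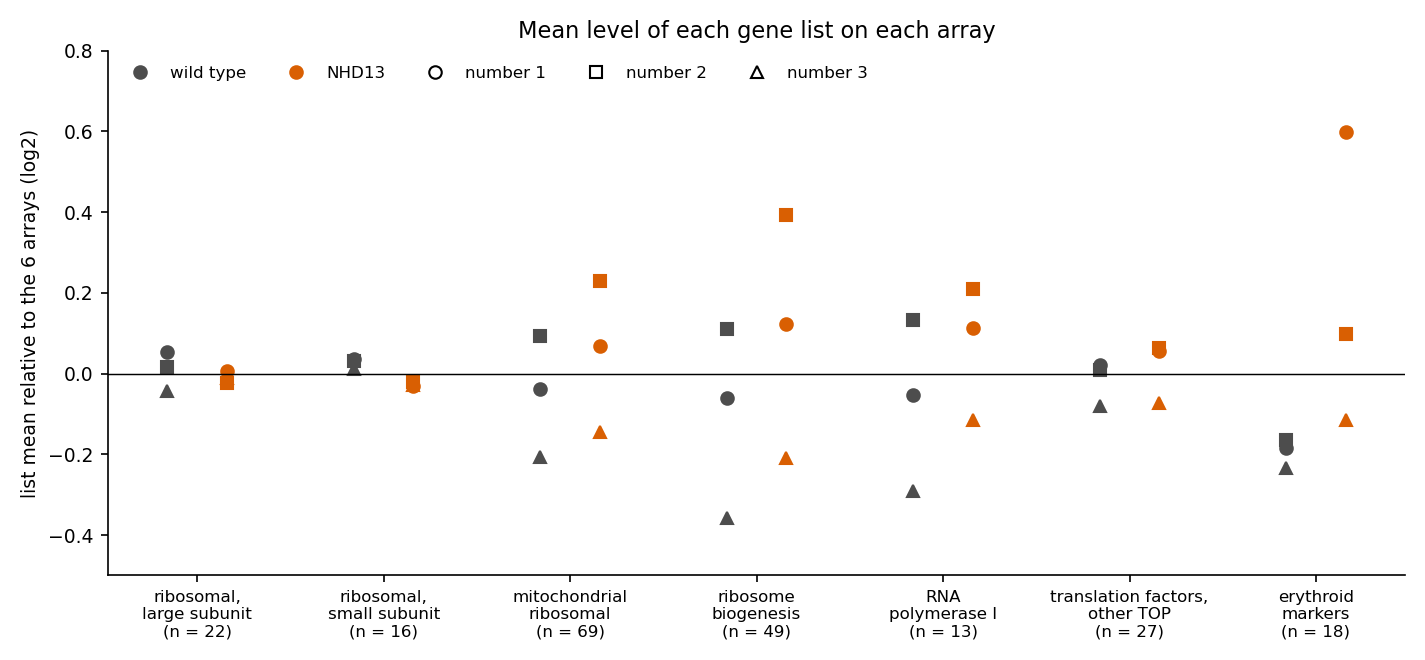
Mean log2 level of each gene list on each array relative to the mean of the 6 arrays, by genotype (colour) and array number (symbol). The large and small subunit lists lie between -0.04 and 0.05, whereas the biogenesis list runs from -0.36 to 0.39.

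The sort's own marker and the markers of other cells give the setting. Kit was bright in both genotypes (12.64 to 12.99 in wild type, 12.33 to 12.85 in NHD13; adjusted p = 0.78). Genes of granulocyte-monocyte progenitors stood between -0.37 and 1.03 in wild type and between -2.51 and 0.91 in NHD13, lowest in pool 2 of each genotype, where the biogenesis list was highest. Of their 18 genes with a probe 15 were detected on all arrays, and their summed non-normalized intensity ran from 106717 to 240432 in wild type and from 25130 to 201275 in NHD13. Erythroid genes (17 of 19 detected on all arrays) stood at -0.18, -0.16 and -0.23 against 0.60, 0.10 and -0.12. Mast cell and basophil genes (3 of 13 detected on all arrays, 3 on none) stood at 1.14, -0.42 and 1.46 against -0.88, -1.49 and 0.20. Stem cell and multipotent progenitor genes (4 of 13 detected on all arrays, Flt3 and Procr on none) stood at 0.42, 0.44 and 0.37 against -0.51, -0.27 and -0.45. In this list 2 of 11 tested genes passed, where 0.556% of all tested genes did. Groups did not overlap for 6 of 11, where 12.5% of all tested genes had such groups. These were all lower in NHD13, but of the 11 genes 8 lay below 0 and 3 above, up to 0.88. The 2 that passed, named here after their values were seen, were Robo4 (-1.77, adjusted p = 0.013), not well above background in any NHD13 pool, and Meis1 (-1.27, adjusted p = 0.048). Robo4 was detected on the 3 wild type arrays only, and so met the detection filter through wild type alone. In such bulk samples fewer cells of a type and less RNA per cell cannot be told apart. Their part in the results above was not tested.

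Most markers of mature cells were not detected on all arrays. Of the B cell and plasma cell list 1 of 6 genes with a probe was detected on all arrays. It was Cd79b, with a mean of 8.90 in wild type and 8.22 in NHD13, while Pax5, Cd22 and Blnk were detected on none. Of the T and NK cell list 1 of 9 was, and Cd3d, Cd4 and Cd8a were detected on none. Of the stromal and endothelial list 1 of 12 was, namely Pecam1, with a mean of 8.39 in wild type and 7.35 in NHD13. Col1a1, Col3a1, Lum, Cdh5, Sparc and Bglap were detected on none. Summed non-normalized intensity over the tested genes, which includes background, ran from 716 to 1208 in wild type and 540 to 1073 in NHD13 for B cells. For stroma it ran from 682 to 1292 and from 493 to 1110. For T and NK cells, a list whose signal is mostly Nkg7, also a granulocyte gene in mice, it ran from 4123 to 11237 and from 1508 to 8917.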

How the data were processed

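The deposited table gives, per the file headers, the average intensity of each probe with no background subtraction or normalization, a bead count, the error among beads, and a p-value of detection over negative controls. The authors' other deposited table has processed intensity values, background-subtracted and brought to 1 distribution, judged from the values. The scanner software is not given in the sources used here. Between 15983 and 16836 of 45281 probes were detected per array, each read by 42 or 43 beads in the median, and the number of arrays limits the precision. Values correlated at 0.94 to 0.98 within a genotype and 0.92 to 0.98 between genotypes, and 22.5% to 47.6% of probes differed by over 2 standard errors between arrays of one genotype, so none was a copy.

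Intensities were normalized with limma 3.58.1 in R 4.3.3 (normexp, its control probes deduced from detection p-values, offset 16, quantile, log2). Probes detected at p under 0.05 on at least 3 of 6 arrays, 16518 in all, were tested two-sided with lmFit and eBayes on genotype alone. The p-values were adjusted by Benjamini-Hochberg over all of these probes at 0.05. Only this fit and adjustment were run on simulated normalized values with independent noise, and the normalization and detection filter were not. The annotation gave 34885 probes 1 symbol, 18 several and 10378 none, and RefSeq gene IDs changed 0 symbols. The members and gene lists were chosen with earlier results of these data known. Named genes were the 5 highest and 5 lowest of each subunit, anaemia genes, near-saturated genes and, per ribosome-related list, the called genes or the 2 of smallest p; the remaining members (Rpl4, Rpl12, Rpl24, Rpl28, Rpl29, Rpl30, Rps3, Rps21) and Rpl7l1, Rps27l, Rps19bp1, Rps4x, Robo4 and Meis1 were added with values in view.

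Replicates are numbered 1 to 3 in each genotype, and the labels do not state what same-numbered pools have in common. Their deviations from the genotype means correlated at 0.19, 0.67 and 0.54, all over 0.1, which was read as pairing from the data alone, although arrays of different number reached 0.24. Blocking on the replicate number was an alternative, beside other normalizations, filters, weights, probe choices and arrays left out.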

Additional observations from a re-analysis of the deposited data

How the results depend on the processing

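No ribosomal protein gene passed in any of the 19 alternatives run. Their lowest adjusted p was 0.068, for Rplp0 with array weights, which rest mostly on NHD13 replicate 1 (weight 5.02). With the replicate block Rplp0 had an adjusted p of 0.29, no ribosomal protein gene was called, and 79 probes passed in all against 67 without the block. The count over all probes was 36 without background correction, 11 with detection on all 6 arrays, 579 with array weights and 21 without both arrays numbered 2, and leaving out 1 array at a time gave 1 to 88. The small subunit median of -0.05 was -0.0779 with median scaling, -0.0305 with the mean of each gene's probes, -0.0292 with its dimmest probe, -0.0292 without genes at 50% of the highest probe, and -0.0612 to -0.0281 with 1 array left out. The large subunit median of -0.021 was -0.0358 without genes at 50% of the highest probe and -0.0365 (without wild type replicate 3) to -0.0062 (without wild type replicate 1) with 1 array left out, and -0.0125 without NHD13 replicate 1. Among 480 values of 30 named genes the sign changed in 27, in 13 genes whose main differences were at most 0.10 in size. The causes were not tested. The number of arrays limits what could be detected, and compression near the top of the intensity range was not tested.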
